A study of Mus musculus with 8 samples.

Results

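Small nucleolar RNA (snoRNA) genes with a high array signal were compared between the stripped dorsal skin of mouse embryos lacking corneodesmosin in the epidermis (KO) and that of control embryos (WT). They were chosen by name and by measured level and difference, as the genes named Snord or Snora in the authors' deposited table of changed probe sets with a WT mean log2 intensity of 7.0 or more. This rule found 8 genes, read by 9 probe sets, among the 15 Snord and Snora genes of that table and among the 33793 probe sets of the array. All 8 had lower signal in KO skin, at 0.558 to 0.704 times the WT level. That table held the 5460 probe sets (16.2%) in which the same KO against WT comparison had met 2 limits, 0.05 on the adjusted p and 0.5 on the size of the log2 change. Of these, 1487 (4.4% of the array) were lower in KO skin, and since they include these 8 genes by construction nothing is read from that share. The differences of these genes are therefore given as a description and not tested, and the WT limit itself favours genes with high WT values.

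The KO embryos were KRT14-Cre(tg/0)/Cdsnfl/fl and the WT embryos KRT14-Cre(tg/0)/Cdsnwt/wt, so both carried a Cre transgene driven by a keratin 14 promoter, which acts in keratinocytes and leaves Cdsn intact in other skin cells. All embryos were of the C57B/6J background and were delivered by caesarean section on day E18.5. Each genotype had 4 embryos with 1 array each, and skin of both genotypes had been tape-stripped with a 22 mm D-Squame disk and held on Dermalife medium for 4 h at 37 °C. The RNA came from whole skin, so that fewer cells of a type and less RNA per cell cannot be told apart. The labels name neither litters nor sexes.

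SnoRNAs are short non-coding RNAs of the nucleolus that guide the chemical modification of ribosomal RNA by base pairing. C/D box snoRNAs, the Snord genes, work with the proteins fibrillarin, Nop56, Nop58 and Snu13 and guide methylation of the ribose. H/ACA box snoRNAs, the Snora genes, work with dyskerin, Nhp2, Nop10 and Gar1 and guide the change of uridine to pseudouridine. Most mammalian snoRNAs lie in introns of other genes, their hosts, and are trimmed out of the spliced intron, so that a snoRNA and its host messenger RNA start from one promoter.

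In the RefSeq table for GRCm38.p6 each of the 8 genes lay inside the bounds of another gene. Snora62 lay in Rpsa and Snora7a in Rpl32, both genes of ribosomal proteins. Snora75 lay in Ncl, the gene of nucleolin, Snord70 in Nop58, Snora5c in Tbrg4, Snord1c in the non-coding host gene Snhg16, and Snord71 in Ap1g1 and also, on the opposite strand, in the lncRNA gene Gm17344. The promoter table held 6 of these hosts on the strand of their snoRNA. They are shown because snoRNAs in introns start from the promoter of their host, though where transcription started was not measured here. Each line gives 60 bases, 30 before and 30 from the RefSeq start of the host onward, 5′ to 3′ on the host's strand in GRCm38.p6. Capitals mark the longest unbroken run of C or T (the first, in Ncl, of 2 runs of equal length), since many genes of the translation machinery begin in such a run.
Rpsa, host of Snora62, chr9:120127736-120127795, plus strand: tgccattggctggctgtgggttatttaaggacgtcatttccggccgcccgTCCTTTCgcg
Snhg16, host of Snord1c, chr11:116671630-116671689, plus strand: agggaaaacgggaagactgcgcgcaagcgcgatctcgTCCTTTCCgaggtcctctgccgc
Ap1g1, host of Snord71, chr8:109778553-109778612, plus strand: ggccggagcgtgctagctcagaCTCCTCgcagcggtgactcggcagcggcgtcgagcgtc
Tbrg4, host of Snora5c, chr11:6626038-6626097, minus strand: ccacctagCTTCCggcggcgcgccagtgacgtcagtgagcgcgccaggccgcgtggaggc
Ncl, host of Snora75, chr1:86359426-86359485, minus strand: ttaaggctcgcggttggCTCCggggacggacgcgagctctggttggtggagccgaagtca
Nop58, host of Snord70, chr1:59684976-59685035, plus strand: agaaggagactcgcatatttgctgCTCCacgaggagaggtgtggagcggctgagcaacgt

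The runs were 4 to 8 bases long. Counted from the RefSeq start, the marked run began at base 21 in Rpsa and at base 8 in Snhg16. It began before the start in the others, at −6 in Nop58, −8 in Ap1g1, −13 in Ncl and −22 in Tbrg4. No marked run stood at the RefSeq start itself, so the capitals do not show that these hosts begin in such a run. A run of 8 or more, as in Snhg16, stood in the same window of 22.9% of all 32851 promoters, and one of 7 or more, as in Rpsa, in 33.8%. Runs of 4 or more stood in 88.4%, and on the opposite strand, as runs of A or G, in 91.8%. The letters CACGTG, the E-box bound by Myc and related factors, which read the same on both strands, were in 0 of the 6 host promoters over their 300 bases and in 7.15% of all promoters. These matches are a description of the letters in these windows.

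Over all 33793 probe sets, limma with Benjamini-Hochberg adjustment called 7194 (21.3%), of which 5138 (15.2%) had risen and 2056 (6.08%) had fallen in KO skin. The array medians of log2 intensity ran from 4.81 to 4.88 among the KO arrays, against 4.70 to 4.80 among those of WT. Once every array was set to the same median, 2965 (8.77%) had risen and 3075 (9.1%) had fallen, and the typical change moved to −0.02, against 0.09 as deposited. Cdsn, the targeted gene, averaged 8.38 ± 0.42 in KO and 11.84 ± 0.18 in WT skin (SD, n = 4 each), with no overlap. Of 12 keratinocyte markers 2, the cornified envelope genes Lor and Flg, could be named, with WT levels above 99.8% and 99.9% of all probe sets; gene names were given only for the authors' table. Both fell in KO skin, Lor by 0.53 and Flg by 0.57 on the log2 scale, and both passed after median centring.

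Of the C/D box genes, Snord70, on chromosome 1, had the largest difference. Its log2 intensity was 6.85, 7.42, 7.44 and 7.48 in KO skin, against 8.13, 8.21, 7.82 and 8.33 in WT skin. All 4 KO values lay below the WT values, with a gap of 0.34, and KO replicate 1 was the lowest array. The difference was −0.82 ± 0.17 (SE), or 0.565 times the WT level. Snord1c, on chromosome 11, had a KO mean of 7.59 ± 0.35 and a WT mean of 8.33 ± 0.08 (SD, n = 4 each). The KO arrays read 7.09, 7.74, 7.88 and 7.67 and the WT arrays 8.40, 8.21, 8.36 and 8.35, so that the groups did not overlap and KO replicate 1 again was lowest. The difference was −0.73 ± 0.16 (SE), or 0.601 times WT.

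Snord71 and Snord35b differed less, on chromosomes 8 and 7. Snord71 read 6.75, 6.90, 7.08 and 6.91 in KO skin, against 7.14, 7.26, 7.71 and 7.87 in WT skin. The groups were separated by 0.07, and WT replicates 3 and 4 stood above WT replicates 1 and 2. The difference was −0.59 ± 0.17 (SE), or 0.666 times WT. Snord35b read 7.08, 7.03, 7.41 and 7.51 in KO skin, against 7.59, 7.64, 7.93 and 7.91 in WT skin. KO replicates 3 and 4 came close to WT replicates 1 and 2, with no overlap. Its difference, −0.51 ± 0.15 (SE), or 0.704 times WT, was the smallest of the 8 and the nearest to the authors' limit of 0.5.

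Among the H/ACA box genes Snora62, on chromosome 9, was the brightest of the 8 genes. It read 8.07, 8.59, 8.88 and 8.71 in KO skin, against 9.08, 9.02, 9.27 and 9.37 in WT skin. The lowest WT value was 0.14 above the highest KO value. The difference was −0.62 ± 0.17 (SE), or 0.649 times WT. Snora5c, on chromosome 11, read 7.68, 8.22, 8.18 and 8.64 in KO skin, against 8.96, 9.12, 8.69 and 9.02 in WT skin. KO replicate 4 and WT replicate 3 nearly met, at a gap of 0.05, while the difference of the means was −0.77 ± 0.19 (SE), or 0.587 times WT.

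Snora75, on chromosome 1, had the largest difference of all 8 genes, −0.84 ± 0.18 (SE), or 0.558 times WT. It read 7.86, 7.26, 7.08 and 7.07 in KO skin, against 8.34, 8.18, 7.94 and 8.19 in WT skin. Unlike the other genes, it was highest in KO replicate 1 within the KO group, though still 0.08 below the lowest WT value. Snora7a, on chromosome 6, read 6.58, 6.53, 6.25 and 6.64 in KO skin, against 6.72, 6.99, 7.02 and 7.39 in WT skin. The groups did not overlap, and the difference was −0.53 ± 0.16 (SE), or 0.692 times WT. With a WT mean of 7.03 it was the gene just inside the limit on level, and Snora81, at 6.45, was just outside.

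**Figure D1:**
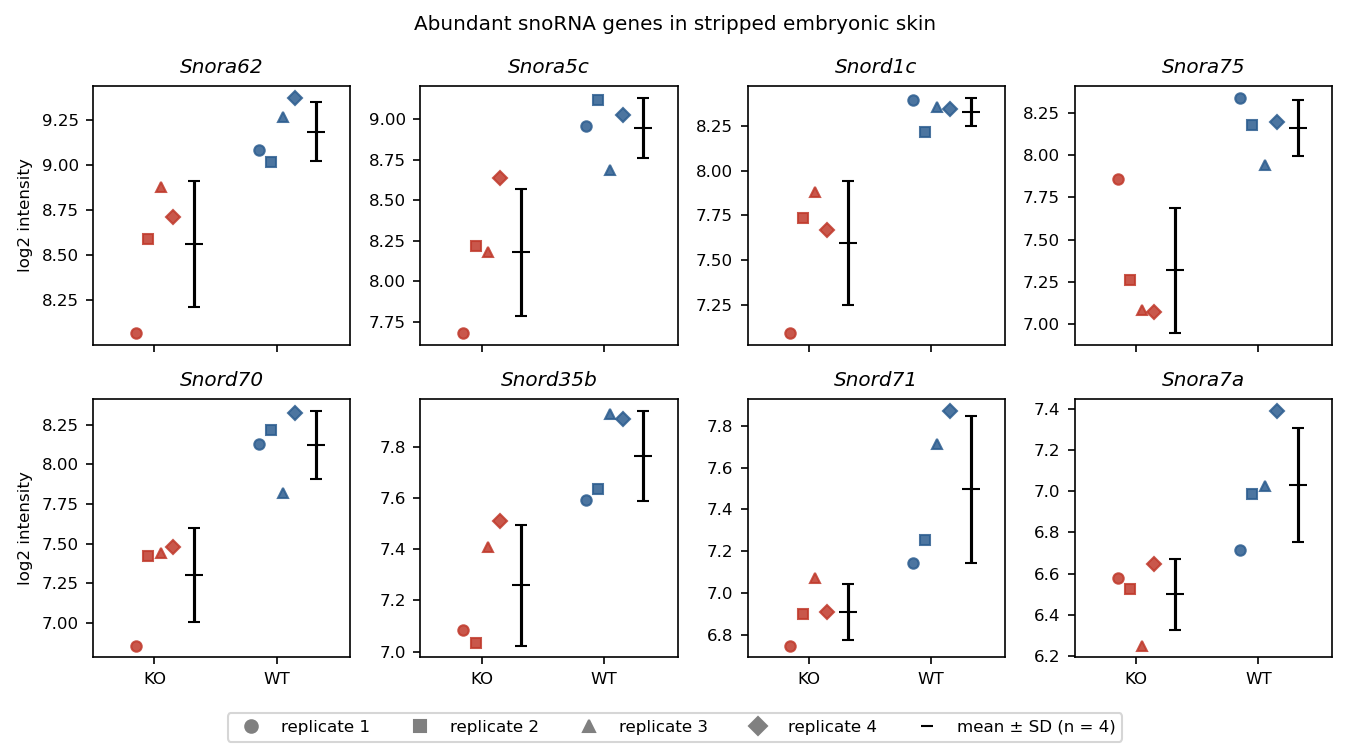
Log2 intensity (vertical axis, a separate range in each panel) of the 8 abundant snoRNA genes in 4 KO arrays (left, red) and 4 WT arrays (right, blue); symbols mark replicate numbers, and black bars the mean ± SD. In each panel all KO points lie below all WT points, by 0.05 (Snora5c) to 0.34 (Snord70).

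The 8 genes did not overlap between genotypes, KO below WT, where 7.43% of all probe sets did so; with the rule drawn from this comparison, nothing is read from that count. Their median difference was −0.68, set beside 0.09 for all probe sets and 0.08 for the 7388 probe sets with a WT mean of 7.0 or more. Each of the 8 had to differ by more than 0.5 in size to enter the authors' table, and those probe sets did not. Nothing is read from the distance between these medians. The 4 C/D box genes had a median of −0.66 and the 4 H/ACA box genes one of −0.70. After median centring all 8 differences were larger, −0.62 to −0.95. Among the 754 named genes of the authors' table with a WT mean of 7.0 or more, 176 (23.3%) were lower and 578 higher in KO skin. The lower genes thus made up 8 of 8 of the abundant snoRNA genes and 22.5% of the other 746, which describes the table and was not tested. A limit of 7.0 on the KO mean, chosen after the values were seen, left 6 genes, again all lower in KO.

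**Figure D2:**
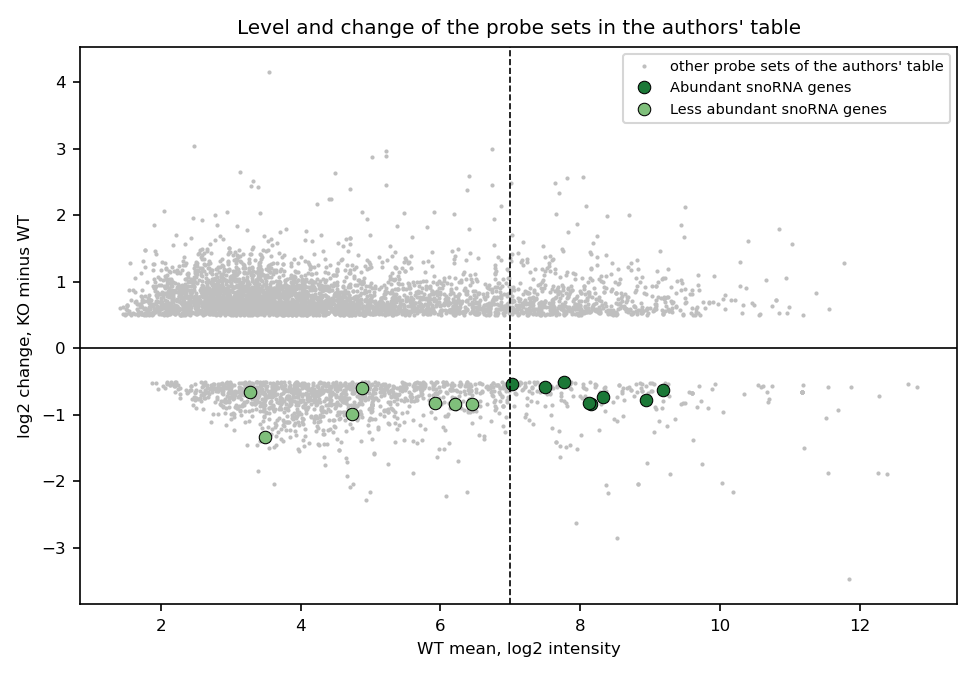
Log2 change, KO minus WT (vertical), against the WT mean log2 intensity (horizontal) for all 5460 deposited changed probe sets in grey, with the 8 abundant (dark green) and 7 less abundant (light green) snoRNA genes and a dashed line at 7.0. All 15 snoRNA genes lie below 0, between −0.51 and −1.33; the empty band around 0 comes from the authors' limit of 0.5.

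The WT levels of the 8 genes lay above 78.5% to 95.3% of all probe sets, a ranking of array signal that does not compare RNA amounts between genes. Their pooled SD between replicates was 0.21 to 0.31, which exceeded that of 49.0% to 79.8% of all probe sets. The mean level of the 8 genes per array was 7.25, 7.46, 7.52 and 7.58 in KO replicates 1 to 4 and 8.04, 8.08, 8.09 and 8.30 in WT replicates 1 to 4. KO replicate 1 was the lowest KO array for 5 of the 8 genes and the highest for 1, Snora75. WT replicate 4 was the highest WT array for 4 of the 8 and the lowest for 0. The KO arrays averaged 7.45 ± 0.15 and the WT arrays 8.13 ± 0.12 (SD, n = 4 each) over the 8 genes.

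**Figure D3:**
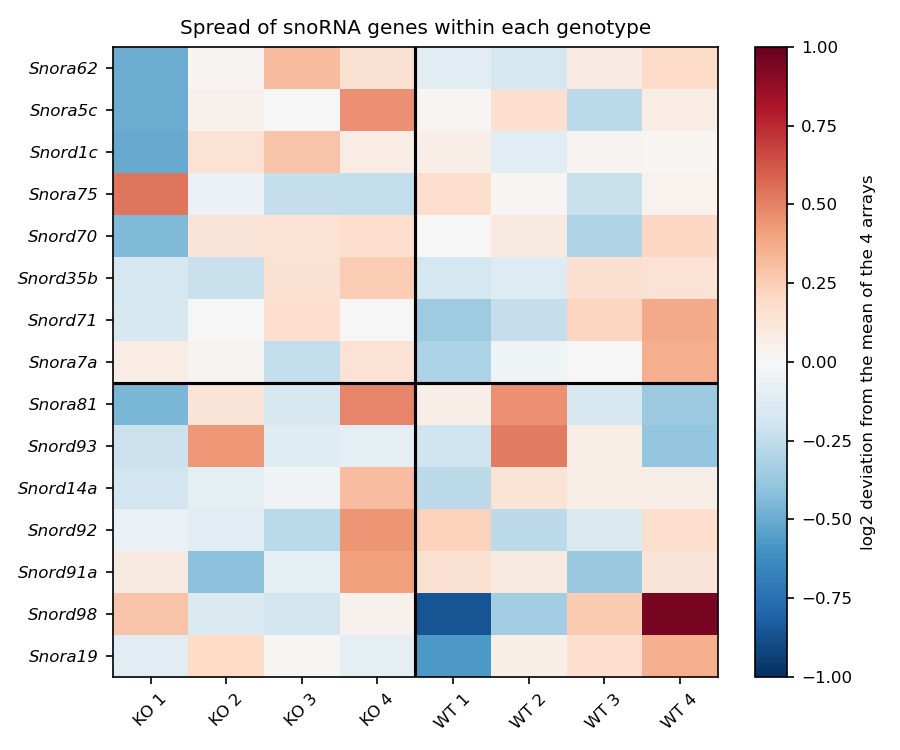
Deviation of each log2 value from the mean of its 4 arrays (colour, red above and blue below) for the 8 abundant (top) and 7 less abundant snoRNA genes (bottom), KO arrays left of WT arrays. KO replicate 1 is blue for Snora62, Snora5c, Snord1c and Snord70 and red for Snora75; Snord98 has the widest WT spread (SD 0.78).

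The probe sets carried 9 to 25 probes for RNAs with RefSeq lengths of 53 to 130 bases. The authors' table gave 4 genes (Snora62, Snord35b, Snord71 and Snora7a) the annotation class 1 and 4 (Snora5c, Snord1c, Snora75 and Snord70) the class 3, which in Affymetrix's scheme stand for unique and mixed probe sets. The class 1 genes had a median difference of −0.56 and the class 3 genes one of −0.80, so the size was larger in the class whose probes can match several transcripts. Snord1c was read by a pair of probe sets, annotated to opposite strands, with differences of −0.73 and −0.75. Their values were equal on WT replicates 1 and 4, so they are not independent readings. RefSeq places its relatives Snord1a and Snord1b in the same host, and whether their RNA adds to the signal of these probe sets was not tested. Whether the probes read the mature snoRNA or its unspliced precursor was not tested. The RNA was extracted on RNeasy mini columns, and how much RNA of 53 to 130 bases they kept was not measured. A lower signal is therefore not shown to be less mature snoRNA.

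The other 7 Snord and Snora genes of the authors' table, with WT means under 7.0, were also lower in KO skin, by −0.59 to −1.33 with a median of −0.83. Snord98 had the largest difference, −1.33 ± 0.32 (SE). It read 2.45, 2.01, 1.97 and 2.20 in KO skin, against 2.63, 3.14, 3.75 and 4.44 in WT skin. Its WT level lay above 28.9% of all probe sets and that of Snora19 above 25.2%, so both were dim. Snord91a read 3.85, 3.34, 3.66 and 4.16 in KO skin, against 4.90, 4.83, 4.37 and 4.87 in WT skin (−0.99 ± 0.19). Snord14a, inside the ribosomal protein gene Rps13, was at 5.10 ± 0.22 in KO and 5.92 ± 0.18 in WT skin (SD, n = 4 each). These 3 genes and Snord93 (−0.83 ± 0.21) did not overlap between genotypes, while Snora81 (−0.84 ± 0.22), Snord92 (−0.59 ± 0.18) and Snora19 (−0.66 ± 0.19) did. Snora19 had 2 probe sets with the same values, counted as 1. RefSeq holds 133 Snord and Snora genes, and those outside the table could not be named on the array, so that how many snoRNAs were unchanged is not known here.

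Other small RNAs of the nucleus were looked up by name in the same table. Scarna9, a small Cajal body RNA of the family that guides modification of spliceosomal RNAs, read 7.57, 8.18, 8.01 and 8.23 in KO skin, against 8.55, 8.51, 8.25 and 8.90 in WT skin. Its difference was −0.56 ± 0.18 (SE), and KO replicate 1 was its lowest array, as for Snora62 and Snord70. Rnu1b1, a gene of the spliceosomal U1 RNA, was at 10.52 ± 0.44 in KO and 11.17 ± 0.12 in WT skin (SD, n = 4 each), and its 9 probe sets held the same values. Others were higher in KO skin. Rnu5g, of the spliceosomal U5 RNA family, was dim, at 2.43 ± 0.37 in KO and 1.54 ± 0.16 in WT skin (SD, n = 4 each). Rprl1, a gene of the RNase P RNA-like family, was at 5.62 ± 0.24 in KO and 5.06 ± 0.12 in WT skin (SD, n = 4 each). The 3 genes described in the table as snoRNA but named otherwise, chosen after their values were seen, were lower too: AF357399 (−1.23 ± 0.31), AF357428 (−0.88 ± 0.23) and DQ267101 (−0.86 ± 0.24). Named microRNA genes ran both ways, 41 higher and 31 lower of 72, at a median WT level of 3.80. Genes of 5S ribosomal RNA did so as well, with 19 higher and 6 lower of 25 at a median WT level of 3.24.

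The genes that span the 8 snoRNAs were 9 in number, and 1 of them, Nop58, was named in the authors' table. Nop58 encodes a core protein of C/D box snoRNPs and holds Snord70 within its bounds. It read 10.28, 10.04, 9.94 and 10.20 in KO skin, against 9.70, 9.88, 9.45 and 9.30 in WT skin. All KO values of Nop58 lay above all WT values, by 0.06, whereas all KO values of Snord70 lay below. Nop58 rose by 0.53 ± 0.15 (SE, limma, Benjamini-Hochberg adjusted p = 0.030) as deposited. It was still higher after median centring but missed the threshold (0.42, adjusted p = 0.0733, same limma fit). Nop58 was highest in KO replicate 1, where Snord70 was lowest, and that was the lowest KO array for 5 of the 8 snoRNA genes. Among the WT arrays, Nop58 was lowest and Snord70 highest in replicate 4. Over WT replicates 1 to 3 both were highest in replicate 2 and lowest in replicate 3. RefSeq places Snord11 in Nop58 and Snord82 in Ncl as well, and neither was named in the table. The other hosts either missed the authors' criteria, were not measured or carried no symbol, so their levels are not given.

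**Figure D4:**
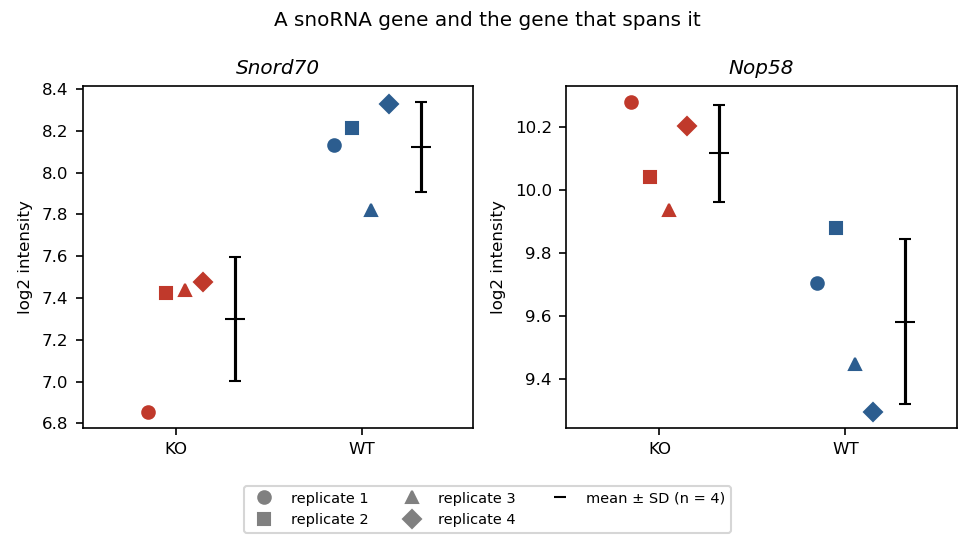
Log2 intensity (vertical axes, with separate ranges) of Snord70 (left) and of Nop58, the gene that spans it (right), in 4 KO arrays (red) and 4 WT arrays (blue), with symbols for replicate numbers and bars for the mean ± SD. The KO points of Snord70 lie below the WT points and those of Nop58 above them.

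The list genes below could be counted only within the authors' table, whose limits on p and size 11.8% of all probe sets met with a rise and 4.4% with a fall. Among its 5080 named genes 3760 were higher and 1320 lower. Of 28 listed genes for snoRNP proteins and their assembly, 3 were named and all 3 rose: Nop58, the nucleolar chaperone Nolc1 (0.61 ± 0.13, SE) and Coil (0.60 ± 0.11), whose product coilin marks Cajal bodies. After median centring 2 of the 3, Nolc1 and Coil, passed. The genes of fibrillarin, dyskerin and the other core proteins were not named. Of 129 listed host genes of snoRNAs and small Cajal body RNAs, known in mouse or human, 7 were named and 7 rose. They rose by 0.53 to 0.91, with 5 past the threshold after centring. They were Rpl21 (0.91 ± 0.14), the translation initiation factor gene Eif2s3x (0.89 ± 0.16), Gnl3 (0.64 ± 0.14), the non-coding host Snhg4 (0.63 ± 0.14), Ebna1bp2 (0.55 ± 0.11), Nop58 and the nuclear import gene Kpna4 (0.53 ± 0.14). Apart from Nop58, they span none of the 15 snoRNA genes above. The 3 of 28 and the 7 of 129 were smaller shares than the 11.8% of all probe sets. No rise of either list as a group is read from them.

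Of 157 listed genes of ribosomal proteins, RNA polymerase I and ribosome assembly, 10 rose and 2 fell, and 8 and 2 of them passed after centring. Both were smaller shares than the 11.8% and 4.4% of all probe sets, so no change of this list as a group is read. Rpl21, Gnl3 and Ebna1bp2 are on the list of host genes as well. The rises included Rpl21, the nucleolar helicase Ddx21 (0.79 ± 0.17, SE), Gnl3, the small subunit processome genes Utp18 (0.60 ± 0.11), Wdr75 (0.57 ± 0.14) and Imp3 (0.56 ± 0.15), Ebna1bp2, Rpl27 (0.53 ± 0.12) and Rpl22 (0.52 ± 0.11). Imp3 missed the threshold after centring (0.45, adjusted p = 0.0564, limma). The falls were Rps26 (−1.84 ± 0.24) and Rpl39 (−0.71 ± 0.12). Rps26 was dim, at 1.55 ± 0.14 in KO and 3.39 ± 0.57 in WT skin (SD, n = 4 each). A filter on dim probe sets left out Rps26 and, among the rises, Rpl27. Kinase genes and pseudogenes whose symbols begin like those of ribosomal proteins were left out. The calls on these lists are those of limma, adjusted by Benjamini-Hochberg over the whole array, with the authors' limit of 0.5 on size as well. The calls after centring used the adjusted p alone.

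**Figure D5:**
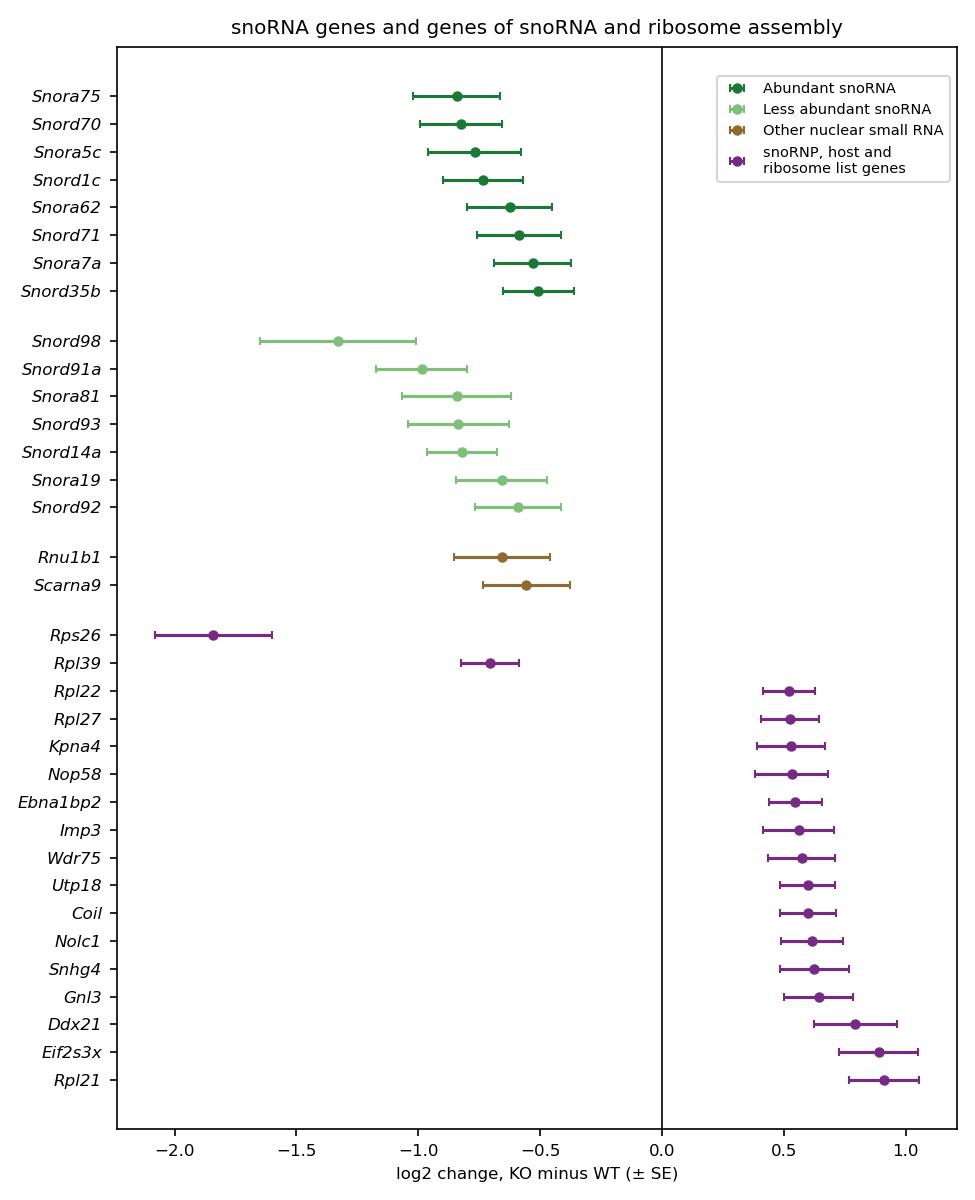
Log2 change, KO minus WT, with its SE (horizontal) for 8 abundant snoRNA genes, 7 less abundant ones, Scarna9 and Rnu1b1, and genes of the snoRNP, host and ribosome lists. All 15 snoRNA genes lie left of 0, and the list genes lie right of 0 except for Rps26 and Rpl39.

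The 5 named genes most like the mean profile of the 8 snoRNA genes over the 8 arrays, by Pearson correlation, were Trav15-1-dv6-1 (r = 0.988), Gm23942 (0.988), Lce1c (0.984), Gdap10 (0.982) and Lmntd2 (0.981). Lce1c, a late cornified envelope gene, was at 10.50 ± 0.38 in KO and 12.39 ± 0.20 in WT skin (SD, n = 4 each). The arrays shared by these genes include the step between genotypes on which the table was chosen, so the correlations are a description. Cell type markers could be named only within the authors' table, so each named marker differed between genotypes by construction. Nothing is read from these counts and summed levels, and how the unnamed markers moved is not known. The keratinocyte markers Lor and Flg, both lower, had a summed level of 13.14 to 13.39 in KO and 13.63 to 13.99 in WT skin. The 1 named marker each of fibroblasts (Mfap5, 0.78 ± 0.23, SE, of 8 listed), muscle (Myh1, 1.28 ± 0.20, of 7) and erythroid cells (Hbb-bt, 0.85 ± 0.15, of 8) was higher, and of these Mfap5 missed the threshold after centring. Of 11 macrophage and dendritic cell markers 9 were named and higher in KO skin, with a summed level of 10.61 to 10.90 in KO and 9.75 to 10.15 in WT skin on the log2 scale. Of 7 T cell markers 4 were named, with a summed level of 8.94 to 9.55 in KO and 8.53 to 8.72 in WT skin. Of 7 neutrophil markers 3 were named, at 6.57 to 7.87 in KO and 5.59 to 6.17 in WT skin. The part of these cells in the snoRNA differences was not tested.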

How the data were processed

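The deposited series values are log2 intensities for 33793 probe sets on 8 arrays, used as the authors scaled them. The submitters' processing notes name RMA, with no role or version. Per the file headers, hybridisation was to Affymetrix Gene Mouse 2.0 ST arrays. The authors' deposited table gives mean log2 intensities, fold ratios (KO over WT), p-values and adjusted p-values for 5460 probe sets. It also gives the probe count and an annotation class, deposited as numbers. No source used here gives its genome build. Per the labels' protocols, up to 4 weeks of storage at 4 °C preceded extraction on RNeasy mini columns, and 9 µg of RNA was labelled.

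KO minus WT was fitted to all probe sets with limma 3.58.1 in R 4.3.3 (lmFit, eBayes, no covariate), with Benjamini-Hochberg adjustment and a threshold of 0.05, and checked on simulated data. The fit differed from the authors' log2 changes by at most 4.9e-09. P-values set KO minus WT against the spread between these arrays, with information on spread shared over probe sets. The number of arrays limits the precision. Where a gene had several probe sets, the brightest over the 8 arrays was used. Host genes, lengths and promoters came from RefSeq (GRCm38.p6). The genes, lists and tests were chosen with earlier results of these data known. The genes named were the 8 members, the other snoRNA genes, up to 8 per list by size of change with further ribosome genes added afterwards (some items are not reported here), the 5 most alike and Cdsn. Alternatives were 3 scalings, a replicate block, arrays left out, other variance settings, a filter on dim probe sets and other definitions of an abundant gene. The planned search for C box letters in snoRNA sequences was not run, since the sequence tables used here do not list them.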

Additional observations from a re-analysis of the deposited data

Results flagged for a closer look

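Arrays standing far apart from the other 3 of their genotype were looked for in 78 groups of 4 values of the named genes. There were 2, where chance at 1 in 20 would give 3.9. Snord70 in KO replicate 1, at 6.85, was the lowest of its group, with the other KO arrays at 7.42 to 7.48. Snord91a in WT replicate 3, at 4.37, was the lowest of its group, with the other WT arrays at 4.83 to 4.90.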

How the results depend on the processing

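Each of the 8 genes was refitted under 16 alternative fits, giving 128 differences, all below 0. The rule drew these genes from a table that required an adjusted p under 0.05 in this contrast, so that all 8 pass as deposited by construction, and the counts of passes describe how near the threshold they lie and test nothing. In 101 of the 128 the adjusted p was under 0.05 (limma, or ordinary least squares in 1 of the fits). Snora7a missed it in 8 of the 16, Snord71 in 6, Snora62 and Snord35b in 5 each, Snora5c in 2 and Snora75 in 1, with adjusted p up to 0.0918; Snord70 and Snord1c missed it in 0. There were 3 passes without variance moderation, and 4 without KO replicate 1, KO replicate 2, WT replicate 3 or WT replicate 4. With single arrays left out, 4 to 8 passed, and the median difference ran from −0.75 to −0.56. The cause of these losses was not tested, though each such fit has fewer arrays or less shared information. The H/ACA box median was −0.85 under quantile normalization. With a WT limit of 8.0, 5 genes were left and all 5 were lower with no overlap, and with annotation class 1 alone 4 genes, likewise. Leaving out dim probe sets gave 3253 calls over all probe sets. Of 108 other named small RNA genes, the 7 less abundant snoRNA genes among them, 75 to 86 passed with single arrays left out, 70 without both KO replicate 3 and WT replicate 1, 52 without moderation, and 24 were left by the filter on dim probe sets and passed. Nop58 missed the threshold in 9 of the 16 fits, Scarna9 in 9 and Rnu1b1 and Kpna4 in 10 each. The replicate numbers are not known to pair embryos. Deviations of arrays with the same number correlated at −0.03, 0.14, 0.23 and 0.01 over probe sets. A replicate block cannot move KO minus WT here, with 1 array of each genotype per number, so the median difference is −0.68 in that fit too, and 8 of the 8 genes passed.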
